A study of Mus musculus with 2 samples.

Results

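Trp73, Lhx1, Lhx5, Ebf3, Calb2 and Ndnf, 6 genes that mark Cajal-Retzius cells, were examined in single-cell transcriptomes of the embryonic mouse dorsal telencephalon. They were taken by symbol and made up 6 of the 32285 genes in the deposited tables. The series held 2 libraries of dissociated dorsal telencephalon from mouse embryos at embryonic day 14.5, which are called replicate 2 and replicate 4 from the last digit of each title. Both were wild type. Their titles name the EomesDot line whereas the study's methods name C57BL/6J embryos, with no word on how the lines relate, and with a single genotype the cells can be compared only by class. The study used such data to predict signals from interneurons to cortical progenitors. Cells were captured in droplets and read at transcript 3′ ends, and each value is a count of UMIs, molecular tags that each mark 1 captured transcript.

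Cajal-Retzius cells are early-born, Reelin-secreting neurons of the marginal zone. They arise at the borders of the pallium, among them the cortical hem, the septum and the pallial-subpallial boundary, and migrate over the cortical surface. Trp73 encodes the p53 relative p73, Lhx1 and Lhx5 encode LIM homeodomain factors, and Ebf3 encodes an early B-cell factor. Calb2 encodes the calcium-binding protein calretinin, which is also used as a marker of interneurons, and Ndnf encodes a secreted protein that later marks interneurons of the outermost cortical layer.

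In GRCm38.p6, the assembly of the mm10 build named in the submitters' processing notes, RefSeq places Trp73 (ENSMUSG00000029026) at chr4:154056249-154139875 and Lhx5 (ENSMUSG00000029595) at chr5:120431886-120441457. Ndnf (ENSMUSG00000049001) lies at chr6:65671611-65712323, Ebf3 (ENSMUSG00000010476) at chr7:137193671-137322805, Calb2 (ENSMUSG00000003657) at chr8:110142526-110168212 and Lhx1 (ENSMUSG00000018698) at chr11:84517975-84525534. The RefSeq promoter table of the same build held 3 of the 6 genes, with 4 start sites. Trp73 had 2 of these, 42702 bases apart. The upstream one begins at the outer end of the gene and the other lies within it, and p73 proteins with and without the amino-terminal transactivation domain are known to start from separate promoters. Counts from 3′ ends cannot tell those isoforms apart. The 250 bases before each start are shown because they are the known start regions of the co-detected genes, on the minus strand and 5′ to 3′, with matches to 4 short motifs on either strand in capitals. The motifs were TAATTA (bound by LIM homeodomain factors), CCCNNGGG (bound by early B-cell factors), the E-box CAGCTG and the GC box GGGCGG, and no matches of different motifs overlapped.
Trp73 upstream start, chr4:154139876-154140125: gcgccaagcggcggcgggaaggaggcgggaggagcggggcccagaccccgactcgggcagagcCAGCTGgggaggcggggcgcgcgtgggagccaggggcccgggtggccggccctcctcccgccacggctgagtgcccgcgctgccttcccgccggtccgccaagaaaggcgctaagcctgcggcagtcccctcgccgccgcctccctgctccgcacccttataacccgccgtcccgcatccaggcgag
Trp73 internal start, chr4:154097174-154097423: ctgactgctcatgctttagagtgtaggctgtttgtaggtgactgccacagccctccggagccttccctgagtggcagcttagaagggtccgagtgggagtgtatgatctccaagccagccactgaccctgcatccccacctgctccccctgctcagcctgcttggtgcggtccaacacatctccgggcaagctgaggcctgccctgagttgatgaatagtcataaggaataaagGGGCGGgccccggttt
Lhx1, chr11:84525535-84525784: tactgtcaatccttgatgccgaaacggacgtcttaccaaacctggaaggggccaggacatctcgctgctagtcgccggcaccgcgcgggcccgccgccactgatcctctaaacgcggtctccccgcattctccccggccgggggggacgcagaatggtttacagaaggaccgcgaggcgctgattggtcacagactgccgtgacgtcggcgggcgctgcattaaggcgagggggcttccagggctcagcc
Ebf3, chr7:137314446-137314695: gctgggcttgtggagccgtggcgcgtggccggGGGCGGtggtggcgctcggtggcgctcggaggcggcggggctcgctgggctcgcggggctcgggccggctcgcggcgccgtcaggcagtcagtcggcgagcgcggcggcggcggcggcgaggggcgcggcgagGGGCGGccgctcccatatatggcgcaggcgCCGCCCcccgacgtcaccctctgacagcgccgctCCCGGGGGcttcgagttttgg

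The Ebf3 sequence held 3 GC boxes and 1 match to the early B-cell factor core, which began 21 bases before the start. The upstream Trp73 sequence held the E-box, and the internal one a GC box 16 bases before its start. The Lhx1 sequence held none of the 4 motifs. The Ebf3 start, like the internal Trp73 one, lies within the gene. Of all 32851 sequences of this length in the table, 4.84% held TAATTA, 11.8% CCCNNGGG, 13.0% CAGCTG and 32.7% GGGCGG. GC content was 77.2% before the upstream Trp73 start, 58.4% before the internal start, 64.8% for Lhx1 and 80% for Ebf3.

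The filters on genes and mitochondrial share, and the removal of called doublets, left 1197 cells of replicate 2, with a median of 30810 UMIs, and 1956 of replicate 4, with a median of 22948. They formed 23 clusters, which were named from marker genes with the 6 genes left out of both the clustering and the naming. A level is given per library in CPM (UMIs of the gene per 1000000 UMIs of the cells summed). Means ± SD are over both libraries (n = 2), and intervals cover counting error only. One cluster of 93 cells (50 and 43) was Cajal-Retzius-like, with 6 of 8 other markers raised, among them Reln, Nhlh2 and Cacna2d2, and 4 hemoglobin genes raised too. It was shallow, with a median of 4932 UMIs in replicate 2 and 9798 in replicate 4. Across libraries, 3 barcodes were shared before filtering and 1 among retained cells.

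When this cluster was divided again, which was decided after its depth had been seen, 51 of its cells fell into 2 sub-clusters without Cajal-Retzius markers. These had medians of 3479 and 4011 UMIs, raised hemoglobin genes, and markers of excitatory or GABAergic neurons. The other 42 cells (18 and 24) carried the markers and are called Cajal-Retzius-marked cells below. The 6 genes took no part in the first clustering. In Cajal-Retzius-marked cells, Trp73 had 438 CPM in replicate 2 and 486 in replicate 4. In the marker-free cells of the same cluster it had 2 UMIs, both in replicate 2, and Ebf3 had 1 in replicate 2 and 4 in replicate 4, while Lhx1, Lhx5 and Ndnf had none. Calb2 was found in 3 of the 51 marker-free cells and in 18 of the 42 Cajal-Retzius-marked cells. Those 3 cells, all of replicate 2, held 57 UMIs, so its level there was 337 CPM against 187 in the Cajal-Retzius-marked cells of that library, and in replicate 4 it was 0 against 156. Because the second division was made from all other variable genes of the same cells, these values are a description.

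Levels by cell class separated the genes into those confined to few classes and those also present elsewhere. Trp73 had 180 UMIs in the Cajal-Retzius-like cells of replicate 2 (313 CPM) and 343 in those of replicate 4 (436 CPM), a mean of 375 CPM ± 87.4. The class next in order was hem or choroid plexus-like, cells with choroid plexus markers such as Ttr, Kcne2 and Folr1, with 59.4 CPM in replicate 2 and 71.0 in replicate 4. There, 14 of 18 cells and 9 of 9 cells had a Trp73 UMI. In excitatory neuron-like cells Trp73 had 13 UMIs in 416 cells of replicate 2 and none in 603 cells of replicate 4, which allows up to 0.179 CPM. Of those 13 UMIs, 9 lay in 1 cell. The Cajal-Retzius-like and the hem or choroid plexus-like levels did not overlap, and the remaining classes could not be ordered at counts this low.

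**Figure D1:**
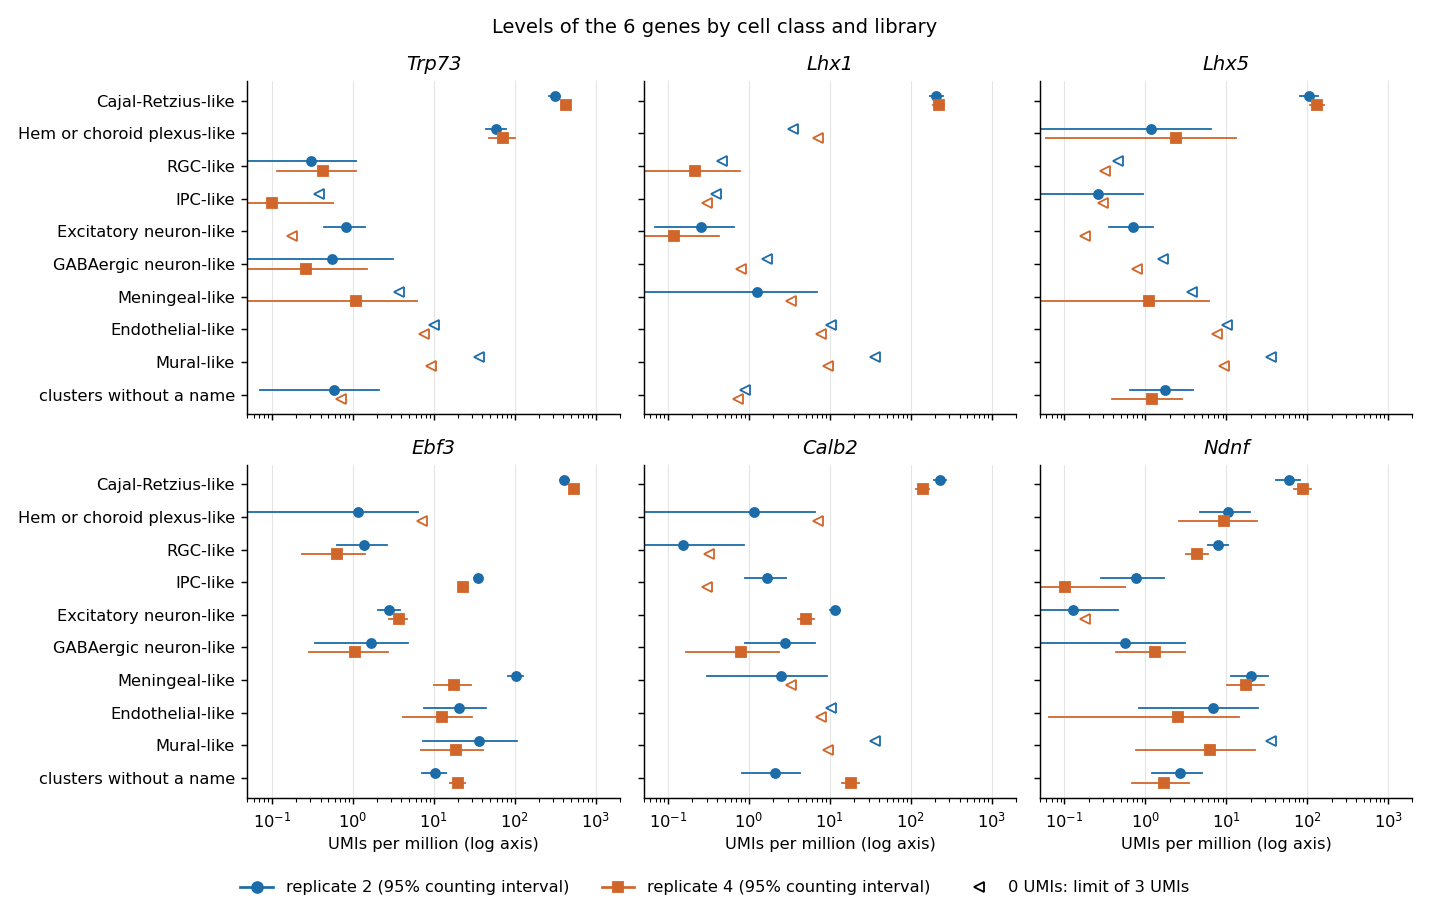
Level of each gene (CPM, log axis) in every cell class, with 1 point per library and its 95% counting interval, and open triangles at the limit of 3 UMIs where a class had none. Cajal-Retzius-like cells had the highest level of all 6 genes in both libraries, and Trp73, Ebf3 and Ndnf had further classes well above their lowest ones.

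Lhx1 was the gene most nearly limited to 1 class. Of its UMIs, 119 of 124 in replicate 2 (96.0%) and 173 of 177 in replicate 4 (97.7%) lay in Cajal-Retzius-like cells, at 207 and 220 CPM. No Lhx1 UMI was found in hem or choroid plexus-like, IPC-like (intermediate progenitor cell-like), GABAergic neuron-like, endothelial-like or mural-like cells of either library. Lhx5 had 106 CPM in replicate 2 and 132 in replicate 4 in the same class, and 75.3% and 93.7% of its UMIs lay there. Outside it, Lhx5 had 11 UMIs in 2 excitatory neuron-like cells of replicate 2. A cluster without a name, led by Rspo2 and Ttr, held 6 and 4 Lhx5 UMIs. Each other class had 2 UMIs or fewer per library.

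Ebf3 was the most widespread of the 4 transcription factor genes. Its level was 410 CPM in replicate 2 and 536 in replicate 4 in Cajal-Retzius-like cells, but these held only 34.1% and 50.5% of its UMIs. IPC-like cells had 35.2 and 23.4 CPM, with an Ebf3 UMI in 31.2% and 21.1% of cells. Radial glial cell (RGC)-like cells had one in 2.20% and 1.20%, at medians of 33453 and 27709 UMIs against 28073 and 21689 in IPC-like cells. Within the IPC-like class, Ebf3 was highest in the cluster led by Eomes and Neurog2, the defining factors of intermediate progenitors, where 50.5% and 39.8% of cells had a UMI. The cluster led by Rspo2 and Ttr had 15.5 and 29.1 CPM of Ebf3, and endothelial-like cells had 20.4 and 12.8 CPM from 6 and 5 UMIs. Mural-like cells had 36.2 and 18.8 CPM from 3 and 6 UMIs, too few to be placed against IPC-like cells. Meningeal-like cells had 103 CPM in replicate 2 and 17.8 in replicate 4, so the mean of 60.4 CPM ± 60.3 rests on replicate 2, and their order against IPC-like cells is not fixed by these libraries.

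Calb2 and Ndnf, the members that encode no transcription factor, were less regular. Calb2 had 231 and 140 CPM in Cajal-Retzius-like cells. In replicate 2, 57 of its 133 UMIs there came from 3 of the marker-free shallow cells, and in Cajal-Retzius-marked cells its levels were 187 and 156 CPM. Of the 76 UMIs of Cajal-Retzius-marked cells in replicate 2, 62 lay in 4 shallow cells. Of the 110 in replicate 4, 51 lay in 1 cell. Excitatory neuron-like cells had 11.7 and 5.07 CPM, in 2.64% and 2.99% of cells. In replicate 2 this was mostly 1 cluster, led by Tafa1 and Tafa2, in which 5 of 19 cells held 158 Calb2 UMIs, whereas 1 of 84 cells of that cluster had a single UMI in replicate 4. In replicate 4 the cluster led by Slit3 and Neurod1 held 53 UMIs in 11 of 81 cells, against 15 UMIs in 2 of 68 cells in replicate 2. The cluster led by Rspo2 and Ttr held 7 Calb2 UMIs in replicate 2 and 75, in 9 of 105 cells, in replicate 4. Another excitatory cluster held 7 UMIs in 2 of 64 cells in replicate 2 and 30 in 5 of 107 cells in replicate 4. The excitatory cluster with most Calb2 UMIs thus differed between the libraries.

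Ndnf had 59.1 and 87.8 CPM in Cajal-Retzius-like cells and was the lowest of the 6 genes there in both libraries. Meningeal-like cells followed with 20.1 and 17.8 CPM, then hem or choroid plexus-like cells with 10.5 and 9.47, then RGC-like cells with 8.01 and 4.40. Endothelial-like and mural-like cells held at most 2 Ndnf UMIs per library and could not be placed in this order. An Ndnf UMI was found in 9.89% and 6.61% of RGC-like cells but in 0.743% and 0.224% of IPC-like cells. Among RGC-like clusters it was most frequent in one led by Aldoc, Creb5 and Fabp7, at 10.3% and 8.91% of cells. These 3 classes had the same order in both libraries, but the counting intervals of meningeal-like and hem or choroid plexus-like cells overlapped, as did those of hem or choroid plexus-like and RGC-like cells.

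Depth differed between classes, so each cell was also thinned to 5000 UMIs, which left out 25 and 18 of the Cajal-Retzius-like cells. Trp73 was then found in 40% and 72% of the remaining Cajal-Retzius-like cells, against 34% and 51.2% unthinned. In hem or choroid plexus-like cells it was found in 22.2% and 33.3%. Ebf3 was found in 14.5% and 11.2% of thinned IPC-like cells against 0% and 0.313% of RGC-like cells. Ndnf was found in 3.39% and 1.88% of thinned RGC-like cells and in no IPC-like cell.

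Summed UMIs per library and class were then compared with edgeR's quasi-likelihood test, with p-values adjusted by Benjamini-Hochberg across all genes in the fit. Sums of the same library share its depth and preparation, and nothing says that the libraries came from separate litters, so p-values measure the spread between these libraries. Of 15392 genes, 7.1% were called higher in Cajal-Retzius-like than in excitatory neuron-like cells at an adjusted p-value under 0.05. All 6 genes were among them. Log2 fold changes were 9.61 ± 0.55 (SE) for Trp73, 9.84 ± 0.39 for Lhx1, 8.18 ± 0.81 for Lhx5, 6.98 ± 0.57 for Ebf3 and 4.27 ± 0.58 for Calb2. Among excitatory neuron-like cells, 1 cell held 9 of 13 Trp73 UMIs, 3 of 6 Lhx1 UMIs and 8 of 11 Lhx5 UMIs. The size of the fold changes depended on the cells in each class. With called doublets kept they were 7.14 for Trp73, 7.09 for Lhx1, 7.19 for Lhx5 and 5.9 for Ebf3. With classes set by one random share of the UMIs and tested in the remainder, they reached 13.27 for Trp73 and 10.52 for Lhx5, and Lhx1 was also higher under a stricter mitochondrial limit, at 11. The edgeR adjusted p-values of the 6 ranged from 9.77e-06 to 0.000918. Ndnf had only 2 UMIs in excitatory neuron-like cells, so its ratio, 1224, has wide counting limits (330.4 to 10245). Both of those UMIs lay in replicate 2, where the ratio was 461 (118 to 3962), and in replicate 4 Ndnf was at least 490-fold higher when set against 3 UMIs. Such ratios within 1 library were added after the data had been seen.

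With the Cajal-Retzius-marked cells alone the edgeR adjusted p-values ranged from 5.16e-06 to 0.00117, and Calb2 had the smallest log2 fold change, 4.05. Under the DESeq2 Wald test Lhx5 had a log2 fold change of 8.29 ± 3.97 and was not called (adjusted p = 0.14), and all 11 of its UMIs in excitatory neuron-like cells lay in replicate 2. Under that test the share of all calls that were higher moved from 48.1% to 58.7%, and the median of all genes from -0.09 to 0.02 on the log2 scale.

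GABAergic neuron-like cells were compared because calretinin and Ndnf are known from interneurons. None of the 6 genes was called against excitatory neuron-like cells, where 21.4% of genes were called in either direction. At an unadjusted p under 0.05 there were 2, Ndnf and Calb2. Lhx1 and Lhx5 had no UMI in GABAergic neuron-like cells and 6 and 11 in excitatory neuron-like cells, and Trp73 had 2 against 13. These 3 genes passed the filter on low counts through Cajal-Retzius-like cells, so this comparison decides little for them. Ndnf had 1 and 5 UMIs in 84 and 255 GABAergic neuron-like cells, against 2 and 0 in 416 and 603 excitatory neuron-like cells, with an edgeR adjusted p of 0.0627. It was called with the DESeq2 Wald test (adjusted p = 0.00998), without a filter on low counts and at Leiden resolution 2. Calb2 had 5 and 3 UMIs against 182 and 85, with an edgeR adjusted p of 0.0780, and was called lower with the library as a block (adjusted p = 0.0208) and without the filter. Where 1 random share of the UMIs set the classes and the remainder was tested, Trp73 was called higher in GABAergic neuron-like cells, with a log2 fold change of 5.87 (edgeR adjusted p = 0.0206). With called doublets kept, Trp73 (edgeR adjusted p = 0.0214) and Lhx1 (edgeR adjusted p = 0.0296) were instead called lower there. With doublets removed, GABAergic neuron-like cells held 2 Trp73 UMIs and 0 Lhx1 UMIs, so no direction is read from these calls.

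Excitatory neuron-like against RGC-like cells asked whether the genes differ between progenitors and neurons outside the Cajal-Retzius-like cluster. Of all genes, 51.8% were called in either direction, and 2 of the 6 were. Ndnf was lower in neurons, with 93 UMIs in RGC-like and 2 in excitatory neuron-like cells (ratio 95.1, counting limits 25.6 to 797) and an edgeR adjusted p of 6.60e-05. The ratio was 62.5 in replicate 2 and at least 24.5 in replicate 4. Calb2 was higher in neurons, with 267 UMIs against 1 (ratio 130.5, counting limits 23.2 to 5174) and an edgeR adjusted p of 0.000922. The ratio was 75.7 in replicate 2, where 158 of the UMIs came from 5 cells of the cluster led by Tafa1 and Tafa2, and at least 15.8 in replicate 4. With classes set by one random share of the UMIs its log2 fold change was 6.76 and it was not called (edgeR adjusted p = 0.105). Ebf3 had 44 and 62 UMIs in neurons against 9 and 6, a log2 fold change of 1.92 ± 0.77 with an edgeR adjusted p of 0.0600, and was called under 8 alternatives, among them the DESeq2 Wald test (adjusted p = 0.0322). Trp73, Lhx1 and Lhx5 had 13, 6 and 11 UMIs in excitatory neuron-like cells against 6, 2 and 0 in RGC-like cells. They were not called, at edgeR adjusted p-values from 0.155 to 0.869. They passed the filter on low counts through Cajal-Retzius-like cells, so this comparison decides little for them, called or not. With called doublets kept they were called higher in neurons, at edgeR adjusted p-values from 0.00108 to 0.0174. Lhx5 was also called without a filter on low counts (edgeR adjusted p = 0.0183).

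Whether the genes occur in the same cells was examined next. Most cells had none of them, 977 of 1197 in replicate 2 (81.6%) and 1691 of 1956 in replicate 4 (86.5%). Exactly 1 was found in 15.7% and 11.9%, and at least 3 in 18 cells (1.5%, exact 95% binomial interval 0.894 to 2.37) and 23 cells (1.18%, 0.747 to 1.76). All 6 were found in 2 and 7 cells. Of the 41 cells with at least 3, 36 lay in the Cajal-Retzius-like cluster, all of them Cajal-Retzius-marked. The other 5 were 3 hem or choroid plexus-like cells, 1 excitatory neuron-like cell with 9 Trp73, 3 Lhx1 and 8 Lhx5 UMIs, and 1 meningeal-like cell.

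All 15 pairs of the 6 genes were found together in more cells than the product of their shares gives, in both libraries. Outside the Cajal-Retzius-like cluster this held for 10 of 15 pairs in replicate 2 and 7 of 15 in replicate 4, where 3 and 7 pairs were never found together and the median ratios were 2.94 and 0.962. Over all cells the ratio ran from 1.38 for Ebf3 with Ndnf to 49.5 for Lhx1 with Lhx5 in replicate 2, and from 2.37 to 57.7 for the same pairs in replicate 4. Lhx1 and Lhx5 shared 11 and 17 cells, which is 78.6% and 70.8% of the Lhx1 cells. Trp73 was present in 12 of 14 Lhx1 cells in replicate 2 and in 21 of 24 in replicate 4. In cells thinned to 5000 UMIs, 12 of 15 pairs in replicate 2 and 15 of 15 in replicate 4 stayed above the product, but outside the Cajal-Retzius-like cluster only 2 and 0 of 15 did, and 13 and 15 pairs were never found together. Deeper cells raise all shares at once, so these ratios are a description without a test.

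**Figure D2:**
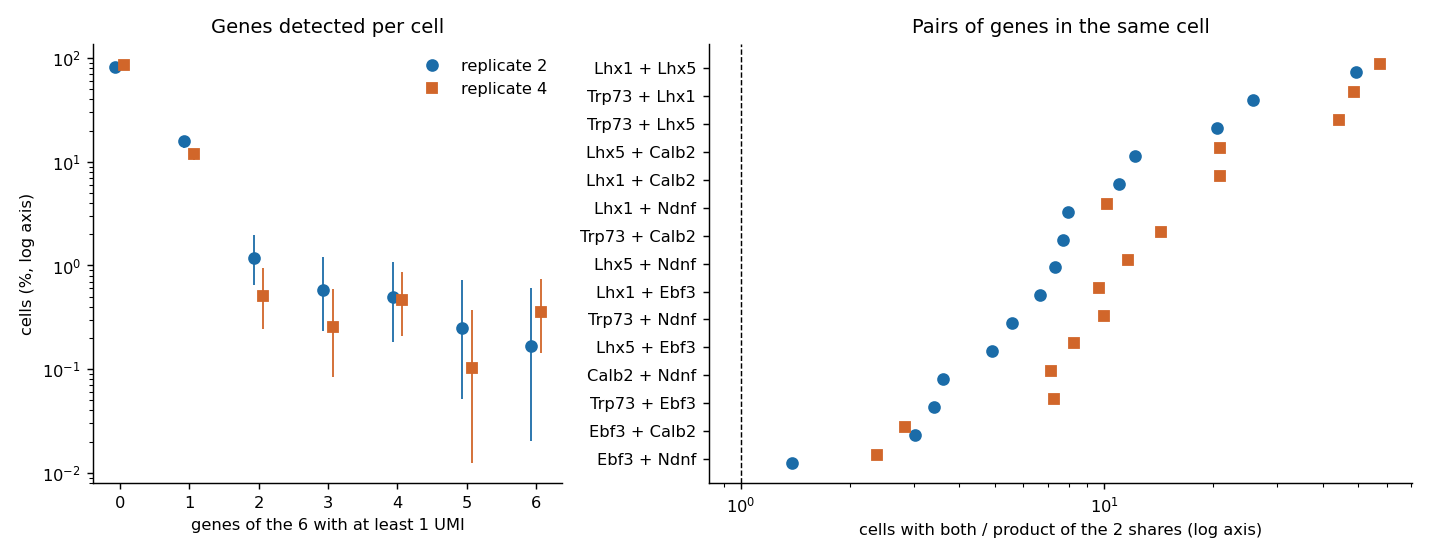
Left, percent of cells (log axis) by the number of the 6 genes with a UMI, per library with exact 95% binomial intervals. Right, for each pair of genes, cells with both divided by the number given by the product of their shares (log axis), with the dashed line at equality. Each pair lies to the right of the line in both libraries, and Lhx1 with Lhx5 lies farthest.

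Among the 42 Cajal-Retzius-marked cells, 15 of 18 and 21 of 24 had at least 3 of the genes. Ebf3 was the most frequent, in 88.9% and 95.8% of cells, followed by Trp73 in 88.9% and 91.7%. Lhx1 was found in 61.1% and 87.5%, Lhx5 in 61.1% and 70.8%, Calb2 in 44.4% and 41.7%, and Ndnf in 22.2% and 29.2%. The order from Trp73 and Ebf3 down to Ndnf was thus alike in both libraries, while Trp73 and Ebf3 differed by at most 1 cell per library.

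These cells fell into 3 sub-clusters, called A, B and C. Sub-cluster A (10 and 11 cells) also had 6 of 10 hem or choroid plexus markers and 5 of 8 IPC markers raised, among them Eomes. Sub-cluster C (4 and 13 cells) had all 8 Cajal-Retzius markers raised and 3 hem or choroid plexus markers. Hemoglobin genes were raised in A and B too. Sub-cluster B was 4 shallow cells of replicate 2 (median 4245 UMIs), so it has no second library.

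Trp73 was high in both deep sub-clusters, with 502 and 558 CPM in A and 292 and 440 in C. Ebf3 was alike in both, with 618 and 576 CPM in A and 541 and 600 in C. Ndnf was low in A, with 22.3 and 29.0 CPM, and higher in C, with 233 and 142. A single cell of replicate 2 held 26 of the 28 Ndnf UMIs of C in that library, and without it, a comparison added after the data had been seen, the other 3 cells had 24.1 CPM, within the range of A. In A, all 6 Ndnf UMIs of replicate 2 lay in 1 cell. Calb2 was found in 20% and 18.2% of cells of A and in 50% and 61.5% of C. A single cell of replicate 4 held 51 of the 52 Calb2 UMIs of A in that library. Lhx5 was found in 70% and 54.5% of A and in all 4 and 84.6% of C, and Lhx1 in 80% and 81.8% of A and 75% and 92.3% of C. In B, the 4 cells held 62 Calb2, 8 Trp73 and 4 Ebf3 UMIs and none of Lhx1, Lhx5 or Ndnf. Levels of Trp73 did not overlap between A and C, but the counting intervals of A (421 to 595 and 473 to 653 CPM) overlapped that of C in replicate 4 (379 to 507). Levels of Ndnf were separate only with the cell of replicate 2 that held 26 UMIs included. Those of the other 4 genes overlapped, and no test was made because the sub-clusters were drawn from the same cells.

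**Figure D3:**
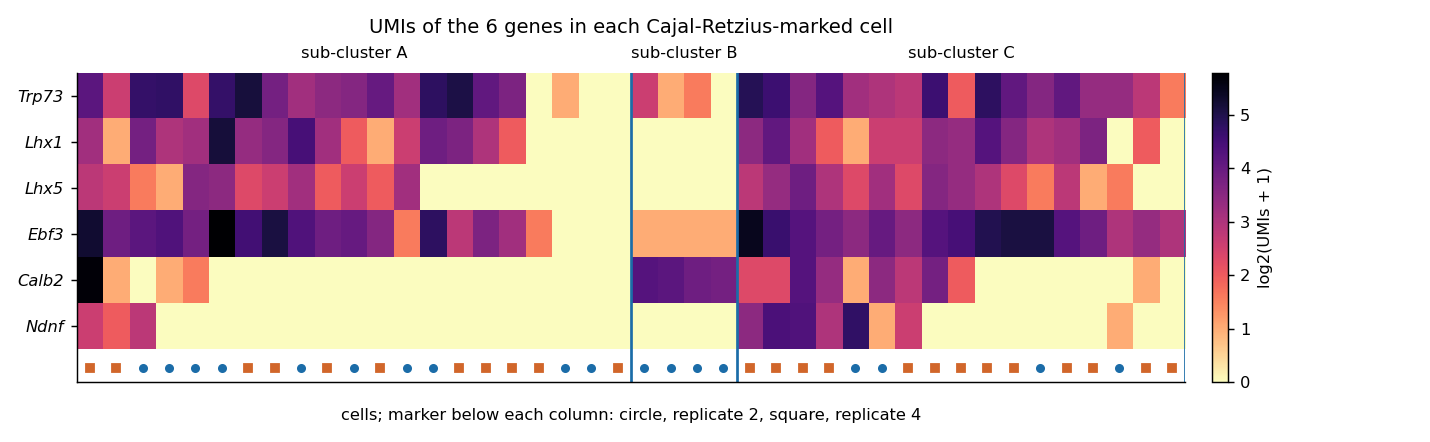
UMIs of each gene as log2(UMIs + 1) in each of the 42 Cajal-Retzius-marked cells, 1 column per cell, grouped by sub-cluster and ordered by the number of genes detected, with the library marked below. Trp73 and Ebf3 fill nearly all columns, Ndnf is mostly in sub-cluster C, and the 4 cells of sub-cluster B show Calb2 with 1 Ebf3 UMI each.

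Each gene was then tested in cells chosen by the other 5. Cells with at least 2 of the other 5 genes were compared with cells with none of them, over all retained cells and with 1 edgeR fit per gene. All 6 genes were called higher, where 4.48% (Trp73), 6.05% (Lhx1), 6.75% (Lhx5), 4.58% (Ebf3), 5.82% (Calb2) and 5% (Ndnf) of all genes tested were called higher in the same fits. The cells overlap between these fits, so they are not 6 independent results.

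Trp73 had 207 CPM in replicate 2 and 347 in replicate 4 in the chosen cells, against 1.01 and 0.757, a log2 fold change of 8.14 ± 0.40 (edgeR adjusted p = 0.00926). Lhx1 had 105 and 164 CPM against 0.0334 and 0.102, a log2 fold change of 10.59 ± 0.45 (edgeR adjusted p = 0.0137). Lhx5 had 61.4 and 105 CPM against 0.233 and 0.102, a log2 fold change of 8.80 ± 0.48 (edgeR adjusted p = 0.0135). For these 3 transcription factor genes, the cells without the others held at most 31 UMIs per library, over at least 978 cells.

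Ebf3 had 250 and 447 CPM against 11.1 and 9.49, a log2 fold change of 4.97 ± 0.37 (edgeR adjusted p = 0.0151). Calb2 had 64.8 and 114 CPM against 7.75 and 4.0, a log2 fold change of 3.77 ± 0.48 (edgeR adjusted p = 0.0307). Ndnf had 56.5 and 85.9 CPM against 2.41 and 1.62, a log2 fold change of 5.05 ± 0.34 (edgeR adjusted p = 0.00628). In cells without the others, these 3 genes kept at least 65 UMIs per library. With called doublets kept, which adds 2 cells with at least 3 of the genes in replicate 2, Calb2 (edgeR adjusted p = 0.0519) and Ndnf (edgeR adjusted p = 0.0627) were not called.

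**Figure D4:**
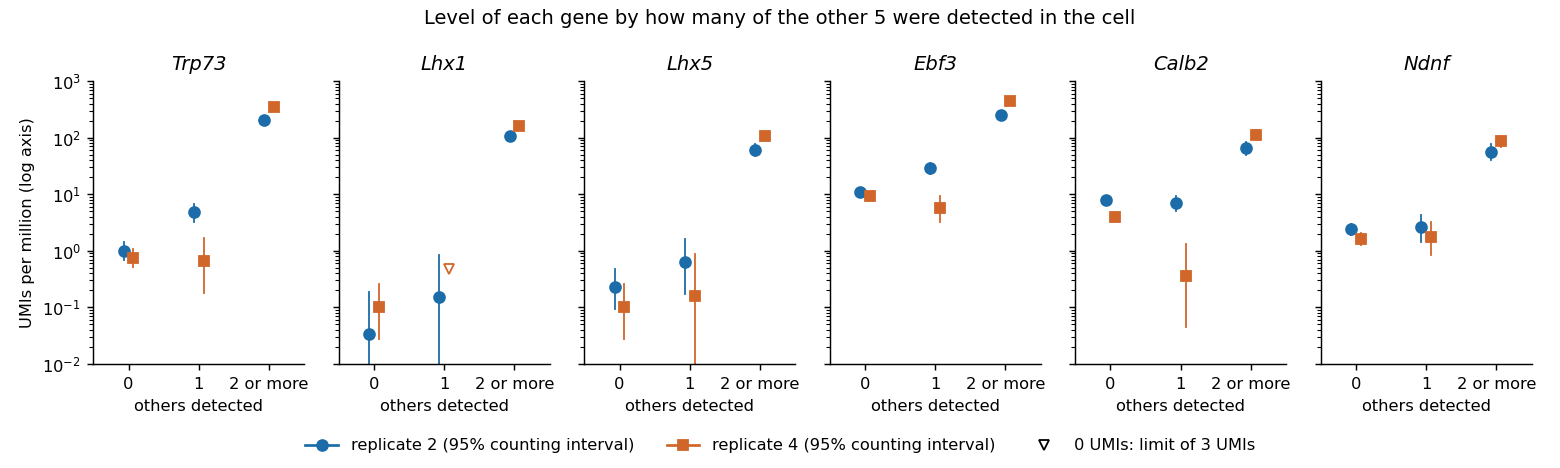
Level of each gene (CPM, log axis) in cells with none, 1 or at least 2 of the other 5 genes, with 1 point per library, its 95% counting interval, and an open triangle at the limit of 3 UMIs where there were none. Cells with 1 of the others lie closer to those with none than to those with at least 2, and cells with at least 2 lie above them for all 6 genes in both libraries.

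The other genes of the cells with at least 3 of the 6 were compared with excitatory neuron-like cells that had none (387 and 569 cells). Median depth was 32412 and 29234 UMIs in the 18 and 23 chosen cells against 36635 and 26750. Of 13609 genes, 16.2% were called in either direction, 9.32% higher and 6.86% lower. The 8 other Cajal-Retzius-associated genes, which also served to name the cluster but not to choose these cells, were all called higher, with a median log2 fold change of 5.39 beside -0.04 for all genes. With called doublets kept, 4 of the 8 were called, and Car10, Ebf2, Zcchc12 and Slc17a6 were not, at edgeR adjusted p-values of 0.0675, 0.108, 0.0868 and 0.154. Over all alternatives the lowest log2 fold changes were 3.79 for Car10, 4.80 for Ebf2 and 3.31 for Zcchc12. Where cells with fewer genes were also kept, Ebf2 and Zcchc12 were not called and Slc17a6 had a log2 fold change of -0.015 (edgeR adjusted p = 0.986). Reln, the secreted protein of these cells, rose from 50.9 to 6880 CPM, a log2 fold change of 6.85 ± 0.51 (edgeR adjusted p = 0.00144). Cxcr4, the receptor for the meningeal chemokine Cxcl12, rose from 0.171 to 60.1 CPM. Cacna2d2, a calcium channel subunit, rose by 7.48 ± 0.21 on the log2 scale, and Slc17a6, a vesicular glutamate transporter, by 1.79 ± 0.17.

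Genes of the hem, septum and roof were higher in the same cells. Of 11 genes 9 were tested, and 8 were called higher with none lower (median log2 fold change 5.26). Lmx1a, a roof plate and hem factor, had 95 CPM against 0.227, and Rspo2, a Wnt pathway ligand, had 175 against 1.42. The level summed over the list was 972 to 1032 CPM in the chosen cells and 19.1 to 20 CPM in the others. Within the Cajal-Retzius-marked cells alone it was 1009 to 1015 CPM, and again 8 genes were called higher. Of these, 7 were called with doublets kept, without Zic2, and 6 were against all cells without the 6 genes.

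The cortical excitatory neuron and layer genes went the other way, with 9 of 12 called lower and none higher (median log2 fold change -3.18). Neurod6, a transcription factor of cortical excitatory neurons, fell from 784 to 52.2 CPM. Sox5, a transcription factor of deep-layer neurons, fell from 4698 to 339 CPM. These calls depended on the cells kept, since 3 of the 9 were called where cells with fewer genes were also kept and 0 of 9 with called doublets kept. Neurod6 and Sox5 were lower in both settings but not called. Bhlhe22 was not called where at least 4 of the 6 genes were required (edgeR adjusted p = 0.159), after thinning (0.103) or under a stricter mitochondrial limit (0.0779). Of 7 pan-neuronal genes 3 were called lower, Dcx, Rbfox3 and Snap25, and none higher. Keeping called doublets left Dcx called, while Snap25 had an edgeR adjusted p of 0.0501 and Rbfox3 of 0.136. Rbfox3 was not called either where cells with fewer genes were kept or where 2 of the 6 genes sufficed, nor Snap25 against all cells without the 6 genes. Among family relatives of the 6 genes, a list that shares Ebf2 with the Cajal-Retzius-associated genes, 5 of 8 were tested, and Lhx9, Ebf1 and Ebf2 were called higher, with Ebf1 at 184 CPM against 9.96. Against all cells without the 6 genes, Ebf1 had a log2 fold change of 0.43 (edgeR adjusted p = 0.832) and was not called. Ebf2 was not called in the 2 settings named above for it.

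Of 9 progenitor genes 8 were tested and 5 were called higher, Eomes, Pax6, Vim, Sox2 and Top2a, with summed levels of 490 to 570 CPM against 143 to 153. Sox2 and Top2a were not called in the Cajal-Retzius-marked cells alone or where at least 4 of the 6 genes were required (edgeR adjusted p of 0.328 and 0.858), nor Sox2 with DESeq2 size factors (edgeR adjusted p = 0.0527). Against all cells without the 6 genes, progenitors included, Sox2, Pax6, Vim and Top2a were called lower. Keeping called doublets left 1 of the 5, Pax6, called higher, and where cells with fewer genes were also kept Eomes had a log2 fold change of 1.04 and was not called (edgeR adjusted p = 0.163). Of 7 GABAergic genes 2 were tested and neither was called, and their summed level was 2.0 CPM in the chosen cells of replicate 2 and 98.3 in those of replicate 4, with 6 and 2 of the 7 at 0. Whether cells of these kinds contributed to the chosen cells was not tested.

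**Figure D5:**
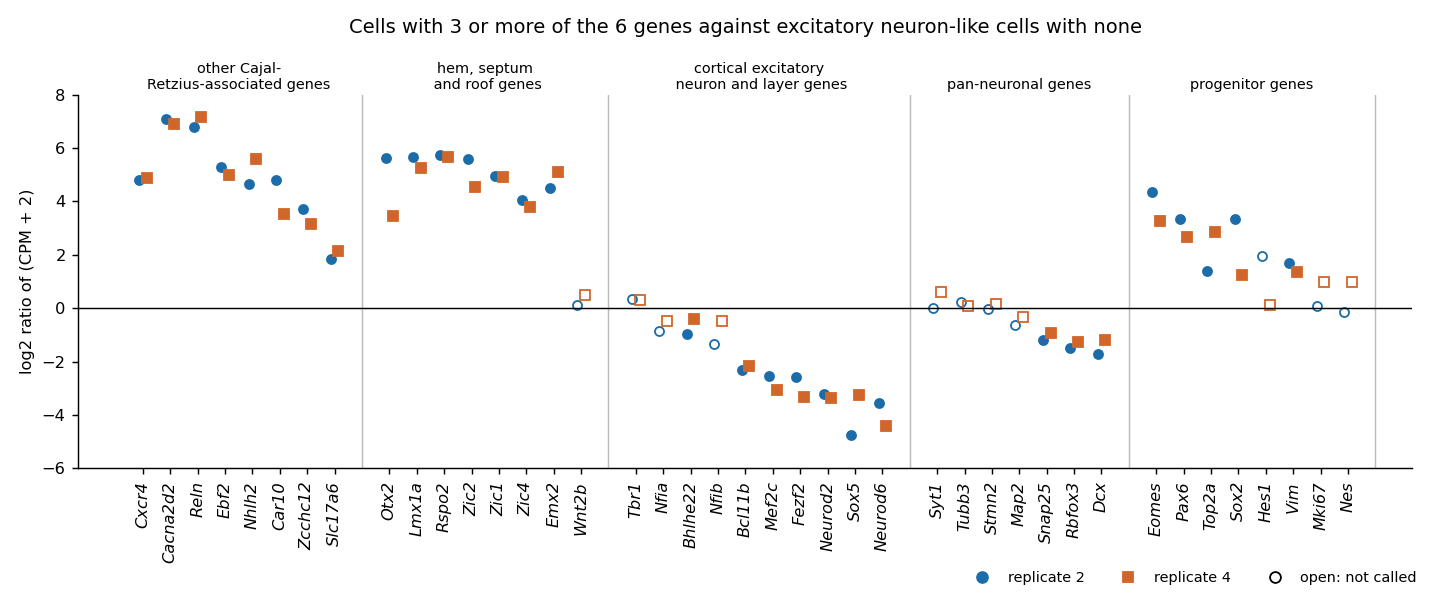
Log2 ratio of (CPM + 2) for genes of 5 lists (not every gene tested is shown), cells with at least 3 of the 6 genes over excitatory neuron-like cells with none, 1 point per library. Filled points are called by edgeR and open ones are not. Cajal-Retzius-associated genes and hem, septum and roof genes lie above 0, and most cortical excitatory neuron and layer genes below it, in both libraries.

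The 8 genes with the largest fitted rise among those at 20 CPM or more were Mcidas, Pifo, 1700012B09Rik, Clic6, Gmnc, Msx1, 1700016K19Rik and Fzd10os. Gmnc and Mcidas encode geminin-family regulators of multiciliated cells. Gmnc had 191 UMIs in the chosen cells and 2 in the others. Of those 191, 168 lay in the Cajal-Retzius-like cluster, and sub-cluster A held 249 and 362 CPM of it against 0 and 4.65 in C. The sub-clusters were drawn from the same cells, so the levels in A and C are a description. Mcidas had 63 UMIs against none, at least 496-fold higher when set against 3 UMIs over the group. Of the 63, 7 lay in replicate 2 and 56 in replicate 4, and the bounds within each library were 67.3-fold and 378-fold. Of its 63 UMIs, 45 lay in the Cajal-Retzius-like cluster, 6 in replicate 2 and 39 in replicate 4.

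Most other genes of this set came from the few cells outside that cluster. Pifo had 42 of 47 UMIs, Msx1 31 of 33, 1700016K19Rik 30 of 32 and Clic6 87 of 113 in the 5 chosen cells elsewhere, and 1700012B09Rik all 39. Hem or choroid plexus-like cells had 301 and 346 CPM of Pifo and 457 and 770 CPM of Gmnc. Fzd10os had all its 30 UMIs within the Cajal-Retzius-like cluster. In the Cajal-Retzius-marked cells alone, Gmnc (edgeR adjusted p = 4.96e-05), Mcidas, Clic6 and Fzd10os were called and the other 4 were not tested because of their low counts. Mcidas was not called with doublets kept (edgeR adjusted p = 0.0671), nor Clic6 against all cells without the 6 genes (edgeR adjusted p = 0.0611).

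The 8 genes with the largest fitted fall were Sla, Itprid1, Kcng1, 3110039M20Rik, Slc17a7, Cck, Lrfn5 and Adamts18. Sla, an adaptor protein, had no UMI in the chosen cells and 880 in the others, at least 12.4-fold lower, or at least 5.17-fold in replicate 2 and 7.14-fold in replicate 4. Slc17a7, the vesicular glutamate transporter of cortical projection neurons, had 1 UMI against 1234, a ratio of 0.0191 (counting limits 0.000484 to 0.107). Lrfn5, a synaptic adhesion protein, fell from 1231 to 40.6 CPM. In cells thinned to 5000 UMIs, Sla, Itprid1, Kcng1, Slc17a7 and Cck were not called, and where cells with fewer genes were also kept Sla, Itprid1, Kcng1, 3110039M20Rik, Lrfn5 and Adamts18 were not. Keeping called doublets left 1 of the 8, Cck, called, and Sla had a log2 fold change of -0.29 (edgeR adjusted p = 0.869). The fitted direction of the 8 genes stayed lower under each alternative.

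Genes whose levels ran most like those of the 6 were found over the 19 clusters with at least 10 cells in each library, among 10932 genes, as Pearson correlations of log2(CPM + 10). Clusters share libraries, and all 6 genes were highest in the Cajal-Retzius-like class, so these values are descriptions. The hem or choroid plexus-like cluster, where Trp73 was second highest and Lhx1 had no UMI, was too small in replicate 4 to be among the 19. Trp73 ran most like Lhx1 (r = 0.998), Lhx1os and Insm2. Lhx1 ran most like Lhx1os (r = 0.999), a gene named as its antisense partner, whose reads can be told apart only if strand was used, then Ccno and Insm2. Lhx5 ran most like Trp73 (r = 0.991), Lhx1 and Lhx1os. Ebf3 had the least close partners, Ebf2 (r = 0.869), Abcc6 and Fibcd1. Calb2 ran most like Samd3 (r = 0.944), F8a and Mab21l1, and Ndnf like Slc25a21 (r = 0.944), Phlda3 and Cpne2. Over the 21 clusters with at least 5 cells in each library, a limit chosen after the data had been seen, which include the hem or choroid plexus-like one, Trp73 and Lhx1 had r = 0.868, and Trp73 ran most like 9330185C12Rik (r = 0.984), whereas Lhx1 still ran most like Lhx1os (r = 0.999) and Ebf3 most like Ebf2 (r = 0.854).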

How the data were processed

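Single-cell RNA was measured in 2 libraries. The authors deposited raw UMI counts per gene and barcode, made with Cell Ranger 7.0.0 (mm10, per the submitters' processing notes) after its cell calling. Whether intronic reads were counted is not stated. Total counts were 40267872 and 49422007 UMIs in 1712 and 2589 barcodes.

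Barcodes needed at least 1000 genes and no more than 10% mitochondrial UMIs, and doublets called by Scrublet (14 of 1211 and 15 of 1971) were left out. Counts were scaled to 10000 per cell, and Leiden clusters (scanpy 1.11.5, resolution 1, 20 neighbours, 30 components, 2000 variable genes without the 6 genes) were named where at least 3 markers were raised (log2 ratio of at least 1, in 25% of cells) and no other type had more markers among the top 10 genes. These names were rebuilt and can depart from the study's own. UMIs were summed per library and class and tested with edgeR 4.0.16 (quasi-likelihood, TMM, filterByExpr, Benjamini-Hochberg adjustment). All classes with 10 or more cells per library (5 for Cajal-Retzius-like) shared 1 fit. DESeq2 1.42.0 was an alternative. The fits were first tested on simulated data.

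Sums of 1 library form a pair, and their deviations correlated (0.289 to 0.502), so the library as a block was an alternative. The study's methods state no fit of this kind. The text names the 6 genes, examples from gene lists, the 8 called genes that rose most and the 8 that fell most among those at 20 CPM or more with 1 sign in both libraries, and the 3 genes most like each of the 6. Some genes of the lists are counted but not reported singly here. The members and lists were chosen with earlier results of these data known. Shares of cells have exact Clopper-Pearson 95% intervals, and a group with no UMI has a limit of 3 UMIs. The SE of a log2 fold change was taken as its size over the root of F.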

Additional observations from a re-analysis of the deposited data

Results flagged for a closer look

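Barcodes left out by the filters on cells also held the 6 genes, which is a signal outside the cells compared. In replicate 2, 515 barcodes were left out and held 123 UMIs of the 6 genes, and in replicate 4, 633 barcodes held 125. At least 3 of the 6 genes were found in 3 of these barcodes in replicate 2 and in 5 in replicate 4, of which 3 and 4 had at least 1000 genes.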

How the results depend on the processing

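All 6 genes kept their direction and call in Cajal-Retzius-like against excitatory neuron-like cells under the alternatives run, except Lhx5 with the DESeq2 Wald test. In cells chosen by the other 5 genes, 52 of 54 alternative values kept the call. Genes called fell from 2270 to 1470 in Cajal-Retzius-like against excitatory neuron-like cells with classes from one part of UMIs, and from 3293 to 1848 in GABAergic against excitatory neuron-like cells with at least 500 genes. For cells with at least 3 of the 6 genes they moved from 2201 to 3924 with at least 2 genes, 650 in thinned cells, 1431 with at least 500 genes and 936 with doublets kept. The cells with at least 3 of the genes were 1.34% on average, 1.08% where a gene needed 2 UMIs and 0.907% after thinning, and 1.18 to 1.5% with 1 library left out. In GABAergic against excitatory neuron-like cells, the classes from one part of UMIs turned Trp73 to 5.87, Lhx1 to 1.74, Lhx5 to 4.45 and Calb2 to 2.92 on the log2 scale, and at most 5% mitochondrial UMIs turned Trp73 to 1.67. In excitatory neuron-like against RGC-like cells these 2 settings turned Trp73 to -3.55 and -1.38, and Calb2 was no longer called with classes from one part (adjusted p = 0.105). Against all cells without the 6 genes, Bhlhe22 turned to 0.20, Sox2 to -2.23, Pax6 to -0.87, Vim to -0.80, Eomes to -0.62 and Top2a to -3.39. With at least 500 genes Slc17a6 turned to -0.015. The causes were not tested. In cells with at least 3 of the genes, keeping called doublets left 4 of 8 Cajal-Retzius-associated, 0 of 9 layer and 1 of 5 progenitor genes called. It added calls for Trp73 and Lhx1 in GABAergic against excitatory neuron-like cells, and for Trp73, Lhx1, Lhx5 and Ebf3 in excitatory neuron-like against RGC-like cells. With the library as a block, the calls of the 6 genes changed only for Calb2 in GABAergic neuron-like cells. With 1 library left out there is no residual variation, so those values have no test, and the 6 genes stayed higher in Cajal-Retzius-like cells in each library. Counts of Lhx1, Lhx5 and Trp73 were low outside Cajal-Retzius-like cells, with 0 to 4 UMIs per library in most classes. Comparisons without Cajal-Retzius-like cells therefore decide little for these genes.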
